A study of Mus musculus with 12 samples.

Results

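The genes described here are 7 that make or load the transmitter GABA or that mark inhibitory interneurons of the cerebellum, followed through postnatal development in Ts1Cje and euploid mice. They were taken from a list of symbols (Gad1, Gad2, Slc32a1, Nos1, Kit, Tfap2b and Pax2) that was chosen with earlier results of these data known. Every probe set annotated to one of them was used. Each gene had 1 probe set, so the list covers 7 of the 8251 genes with a singly annotated probe set, and 6 of the 5670 genes that passed a filter on dim signal. Ts1Cje mice carry a segmental trisomy of chromosome 16 and are used as a model of Down syndrome, and none of the 7 genes lies on that chromosome. RNA of whole cerebellum was pooled within each genotype and postnatal day (P0, P15 and P30), from 3 cerebella in each euploid pool at P0 and P15, 2 in the euploid pool at P30, and 3 in each Ts1Cje pool at P0, P15 and P30. Both hybridisations of a pool used the same RNA, which gives 12 Affymetrix arrays but 6 independent pools, 1 for each genotype and stage. The labels name neither the strain background nor the sex of the animals.

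GABA is made from glutamate by glutamate decarboxylase, which exists as GAD67, encoded by Gad1, and GAD65, encoded by Gad2, and is loaded into synaptic vesicles by the transporter VGAT, encoded by Slc32a1. In the cerebellum these genes are used by Purkinje cells as well as by the interneurons, the stellate and basket cells of the molecular layer and the Golgi cells of the granular layer. Most cerebellar interneurons arise from precursors that carry the paired-box factor Pax2, which divide in the white matter around birth, and Tfap2b, an AP-2 transcription factor, acts in the GABAergic lineage shortly after its precursors leave the ventricular zone. The receptor tyrosine kinase Kit marks molecular layer interneurons, whereas its ligand is made by Purkinje cells, and Nos1, the neuronal nitric oxide synthase, is found in granule cells and in basket and stellate cells.

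The windows upstream of the members' start sites were searched for a pair of motifs. These were the E-box CANNTG, bound by basic helix-loop-helix factors such as Ptf1a of the GABAergic lineage, and the AP-2 motif GCCNNNGGC, bound by proteins of the Tfap2 family. Sequences are from RefSeq (GRCm38.p6, + strand, 250 bases before the start in the promoter table, 7 of 7 genes matched). Kit has 2 windows there and Pax2 has 3, and only the first window of each gene was searched. Both motifs read the same on the 2 strands, and no match of one overlapped a match of the other. For Kit and Nos1, members that rose with age, the whole window is shown with matches in capitals (an AP-2 motif in Kit, an E-box in Nos1).
Kit, chr5:75574737-75574986: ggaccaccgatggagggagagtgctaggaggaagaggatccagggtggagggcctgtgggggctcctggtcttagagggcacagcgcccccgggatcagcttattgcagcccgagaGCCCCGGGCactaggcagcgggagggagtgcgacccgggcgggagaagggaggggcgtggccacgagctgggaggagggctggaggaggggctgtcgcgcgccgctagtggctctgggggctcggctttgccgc
Nos1, chr5:117866589-117866838: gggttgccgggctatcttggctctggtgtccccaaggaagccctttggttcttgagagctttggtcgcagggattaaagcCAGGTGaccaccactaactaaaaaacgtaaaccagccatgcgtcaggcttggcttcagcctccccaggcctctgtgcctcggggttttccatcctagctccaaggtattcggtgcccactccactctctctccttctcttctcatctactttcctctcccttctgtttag

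For Gad1, which also rose, and Tfap2b, which fell, the window lies inside the span of the annotated gene, and only the 30 bases around the E-box are shown, with the E-box in capitals.
Gad1, chr2:70562013-70562042: gaggcagtcagaCACCTGcaaaggagcccc
Tfap2b, chr1:19211984-19212013: tgcttcacgctcCATTTGtcctccattctc
An E-box was found in 5 of the 7 windows (Gad1, Slc32a1, Gad2, Nos1 and Tfap2b), where 66.2% of 32851 windows of the same length in the table held one. The AP-2 motif was found in 2 of the 7 (Kit and Gad2), against 13.7% of all windows. These matches describe the letters of the windows and were not tested for binding.

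The values are MAS5 signals, which summarise the probes of a probe set on a linear scale, and the signal of one probe set cannot be set against that of another. A summed signal over a list follows its brightest probe sets, and is compared only between pools. Median signal per array was 30.4 to 36.2, and hybridisations of the same pool had an r of 0.9675 to 0.9746 over 7453 probe sets. Differences are on the scale log2(signal + 4.6), which understates the change of dim genes. They are tested with limma over the 6 pools in a model of genotype and stage, and a gene is called where its p-value, adjusted over all 7453 probe sets, is under 0.05. Markers of cerebellar cells were present as the label says, with summed signal over 14 Purkinje cell genes of 1281 to 1548 at P0, 8539 to 10883 at P15 and 10824 to 11591 at P30. Genes of neighbouring midbrain and brainstem gave signal too, with a sum over 11 genes of 1267 to 1484 at P0 and 208.5 to 489.4 at P15.

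Gad1, the GABA-synthesising enzyme GAD67, rose after birth. Its signal was 863.7 and 676 on the euploid arrays at P0, 1205.5 and 1103.6 at P15, and 1313.8 and 1432.4 at P30, and on the Ts1Cje arrays it was 949.1 and 836.9, 1141.8 and 1177.6, and 1385.7 and 1539.2 at the same stages. Every array of a later stage lay above every array of an earlier stage. From P0 to P15 the difference was 0.48 ± 0.13 (log2 ± SE, 2 pools per stage), or 1.40-fold, with a limma adjusted p of 0.0226. From P0 to P30 it was 0.78 ± 0.13, or 1.71-fold (adjusted p = 0.0017), and from P15 to P30 it was 0.29 ± 0.13 and did not pass (adjusted p = 0.231). The call between P0 and P15 ended without the euploid P0 pool (adjusted p = 0.138), the euploid P15 pool (0.0926) or the Ts1Cje P0 pool (0.0502), while the P0 to P30 call held in each of the 16 alternative settings.

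Slc32a1, the vesicular GABA transporter, gave a strong signal at every stage and no call. The euploid arrays read 1054.9 and 987.7 at P0, 1147.9 and 1123.3 at P15, and 1185.5 and 1263.3 at P30. Each euploid stage thus lay above the one before without overlap, by 0.26 from P0 to P30, against -0.034 in Ts1Cje. The Ts1Cje arrays read 1204.5 and 1437.9, 935.3 and 1461.4, and 1420.4 and 1162.3, so the hybridisations of the Ts1Cje P15 pool alone spanned 1.56-fold and overlapped all stages. Between P0 and P15 the difference was -0.008 ± 0.13 with a 95% interval of -0.32 to 0.30 (adjusted p = 0.97), and its sign turned under quantile scaling (0.088). Between P0 and P30 it was 0.11 ± 0.13, with an interval of -0.20 to 0.42 (adjusted p = 0.542). A doubling lay outside both intervals.

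Gad2, the other decarboxylase, was measured close to the lower limit of the filter, which was set at a mean signal of 20.1. Its signal was 19.7 and 20.6 at P0, 24.8 and 18 at P15, and 24.9 and 26.6 at P30 on the euploid arrays. On the Ts1Cje arrays it was 30.9 and 29.5 at P0, 30.6 and 18.9 at P15, and 28 and 25.3 at P30. P0 and P15 overlapped in both genotypes, while P30 lay above P0 in euploid and below it in Ts1Cje, without overlap. The fitted difference from P0 to P15 was -0.11 ± 0.23 (adjusted p = 0.773). At this dim signal the interval ran from -0.65 to 0.43 and was wider than that of Gad1, from 0.19 to 0.78.

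Kit, the receptor of molecular layer interneurons, rose after birth as well. Signals were 158.4 and 162.6 at P0, 237.2 and 242.3 at P15, and 278.4 and 309.3 at P30 in euploid. In Ts1Cje they were 134.7 and 146.1, 205.1 and 211.5, and 303.4 and 365.3. The 3 stages did not overlap on any array. The difference was 0.56 ± 0.16 from P0 to P15 (1.47-fold, adjusted p = 0.0332) and 1.04 ± 0.16 from P0 to P30 (2.05-fold, adjusted p = 0.00136). From P15 to P30 it was 0.48 ± 0.16, which had an unadjusted p of 0.0179 in limma's moderated test and an adjusted p of 0.139. As for Gad1, the P0 to P15 call was lost without the euploid P0 pool (adjusted p = 0.0618), the euploid P15 pool (0.133) or the Ts1Cje P0 pool (0.156).

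Nos1, the neuronal nitric oxide synthase, had the largest fitted rise of the 6 tested genes. It passed the filter only through its signal at P15 and P30, which favours a rise. It was near background at P0, with 3.4 and 9.2 in euploid and 4.3 and 5.3 in Ts1Cje. At P15 it read 27.7 and 29.4 in euploid and 35.4 and 23.8 in Ts1Cje, and at P30 52.2 and 27.1 in euploid and 29 and 38.7 in Ts1Cje. All arrays of P15 and P30 lay above all of P0, while P15 and P30 overlapped. The difference from P0 to P15 was 1.75 ± 0.24 (adjusted p = 0.00119) and that from P15 to P30 was 0.27 ± 0.24 (adjusted p = 0.551). Its size moved with the pseudocount, from 1.07 with a pseudocount of 16 to 2.26 with 1, and it was called in each of the 15 alternatives in which it was tested.

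Tfap2b, the AP-2 factor of young GABAergic neurons, fell after birth. Its signal was 75.7 and 73.1 at P0, 19.3 and 38.5 at P15, and 20.8 and 16.6 at P30 in euploid, and 97 and 101.3, 21.1 and 18.5, and 29.9 and 42 in Ts1Cje. All 4 arrays of P0 lay above the other 8, and P15 overlapped P30. The difference was -1.70 ± 0.28 from P0 to P15 (3.24-fold lower, adjusted p = 0.0029) and -1.57 ± 0.28 from P0 to P30 (2.97-fold lower, adjusted p = 0.00274). Between P15 and P30 it was 0.12 ± 0.28 (adjusted p = 0.825), with opposite signs in the genotypes, -0.47 in euploid and 0.72 in Ts1Cje.

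Pax2, the factor of interneuron precursors, stayed below the filter, with a mean signal of 13.2, and was not tested in the main fit. In euploid it read 12.3 and 10.8 at P0, 12.5 and 15.6 at P15, and 15.7 and 15.9 at P30, so that each stage lay above the one before without overlap. In Ts1Cje it read 7.7 and 15.4, 20.2 and 11.2, and 8.5 and 12.7, and all stages overlapped. Fitted without a filter, the difference from P0 to P15 was 0.27 ± 0.26 (adjusted p = 0.535).

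**Figure D1:**
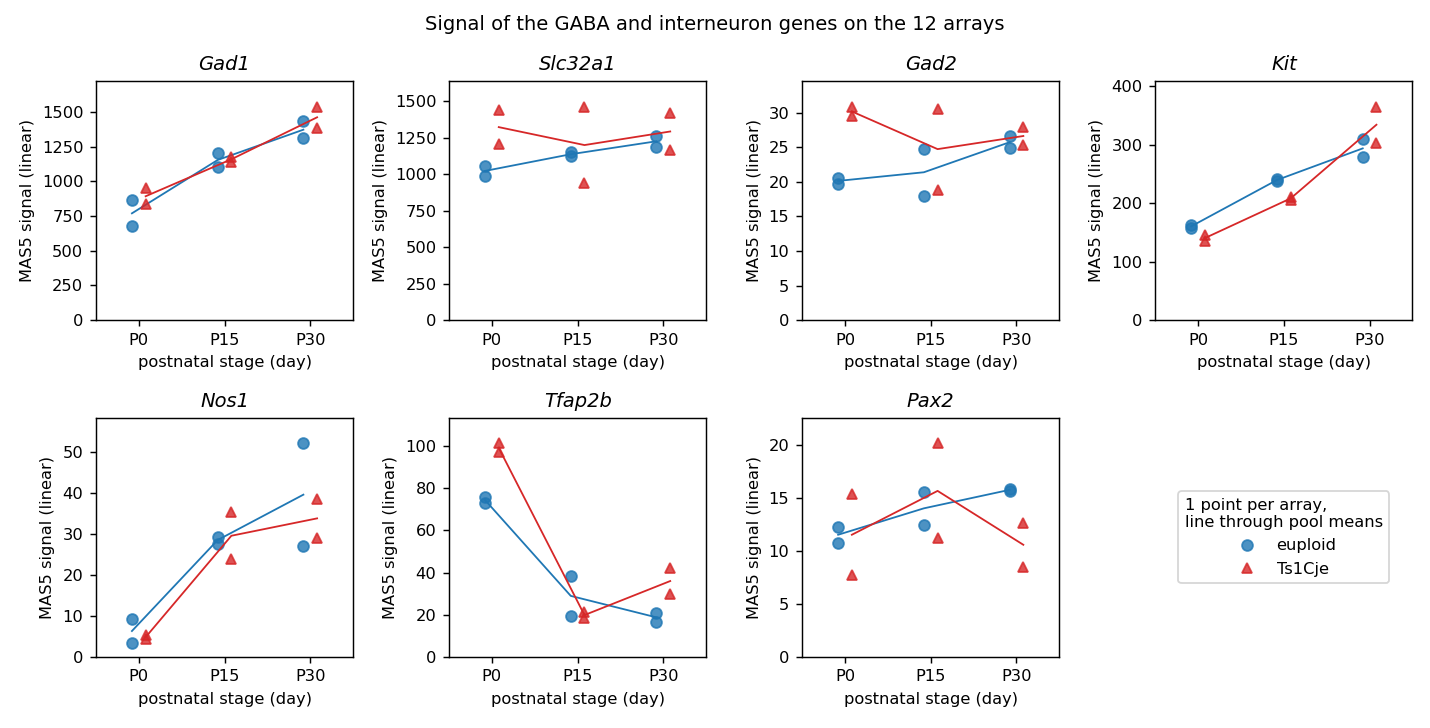
MAS5 signal (linear axis from 0) of each of the 7 genes at P0, P15 and P30, with 1 point per array (circles euploid, triangles Ts1Cje) and lines through the means of the pools. Gad1 and Kit step up at each stage, Nos1 goes from under 10 at P0 to above 23 on all later arrays, and Tfap2b drops from 73.1 or more at P0 to 42 or less.

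These genes were chosen with earlier results of these data known, so the shares given here describe them and are not an independent comparison. Of the 6 tested genes, 4 were called between P0 and P15 (66.7%), where 28.0% of all probe sets were called. They were Gad1, Kit and Nos1, higher at P15 (13.6% of all probe sets were called higher), and Tfap2b, lower (14.4%). Nos1 passed the filter only through its signal at P15 and P30. With no filter, the same 4 of the 7 genes were called, against 2044 of 12422 probe sets. Between P15 and P30 none of the 6 was called, against 4.74% of all probe sets, and 1 of them (Kit) had an unadjusted p under 0.05 in limma, against 21.6% of all. Between P0 and P30 the same 4 genes were called, against 39.0% of all probe sets. The median of the 6 was 0.24 between P0 and P15 and -0.033 over all probe sets. RNA of a whole tissue cannot tell more cells of a type from more RNA per cell, and this holds for each stage difference given here.

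**Figure D2:**
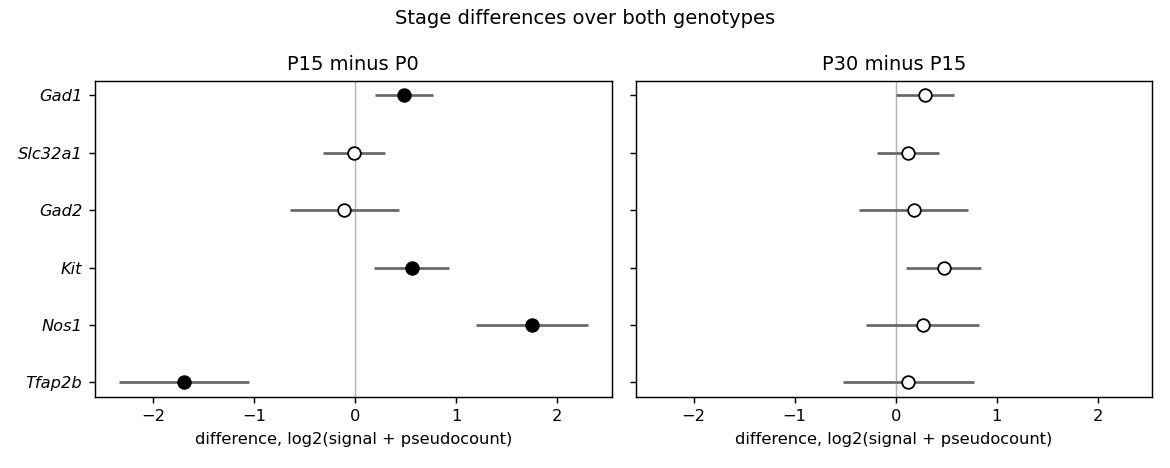
Fitted differences on the log2(signal + 4.6) scale between P15 and P0 (left) and between P30 and P15 (right) for the 6 tested genes, over both genotypes, with 95% intervals and filled points for an adjusted p under 0.05. On the left 4 points are filled (Gad1, Kit and Nos1 above 0, Tfap2b below), and none on the right.

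Between genotypes none of the 6 genes was called over the 3 stages, as was the case for 0 of 7453 probe sets (0%, with 217 at an unadjusted p under 0.05 in limma and none of them a member). The fitted Ts1Cje minus euploid difference was 0.11 ± 0.10 for Gad1, 0.16 ± 0.11 for Slc32a1, 0.23 ± 0.19 for Gad2, -0.069 ± 0.13 for Kit, -0.097 ± 0.20 for Nos1 and 0.26 ± 0.23 for Tfap2b (3 pools per genotype, limma adjusted p = 1 for each). Its 95% interval ran from -0.13 to 0.34 for Gad1, from -0.094 to 0.41 for Slc32a1 and from -0.37 to 0.23 for Kit. It was wider for the dimmer Gad2, from -0.21 to 0.67, Nos1, from -0.55 to 0.36, and Tfap2b, from -0.27 to 0.79. A model in which the genotype difference changes with postnatal day called 0 of 7453 probe sets (0%, with 193 at an unadjusted p under 0.05), and no member had an unadjusted p under 0.05.

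Within a stage, 1 pool is compared with 1 pool, so the differences have no replicate check beyond the hybridisations. At P0 the arrays of both genotypes did not overlap for 4 of the 6 tested genes (66.7%), where 44.3% of all probe sets did not. Slc32a1 lay higher in Ts1Cje by 0.36, Gad2 by 0.49 and Tfap2b by 0.39, and Kit lay lower, at -0.19. Summed signal of the choroid plexus and meninges list was also higher in the Ts1Cje P0 pool, 4036 to 4499 against 3213 to 3278 in euploid. The largest gaps in signal were those of Igf2 (1809 against 1322) and Ptgds (1216 against 828.8). Col3a1, a collagen, was at 142.8 against 74.65 and Dcn, decorin, at 144 against 84.4. Ttr, the leading choroid plexus gene, lay the other way, at 140 against 359.2. So did Folr1 (16.7 against 36.1) and, by little, Msx1 (38 against 40.4). The part of these tissues in the P0 differences was not tested. At P15 only Kit among the 6 was without overlap, at -0.20, against 39.5% of all probe sets. At P30 only Tfap2b was, at 0.79, with 18.7 as the mean euploid signal and 35.95 as that of Ts1Cje, against 39.4% of all probe sets. Tfap2b thus lay higher in Ts1Cje at P0 and P30, while its P15 value of -0.40 overlapped. Without either P30 pool its fitted genotype difference was -0.002.

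**Figure D3:**
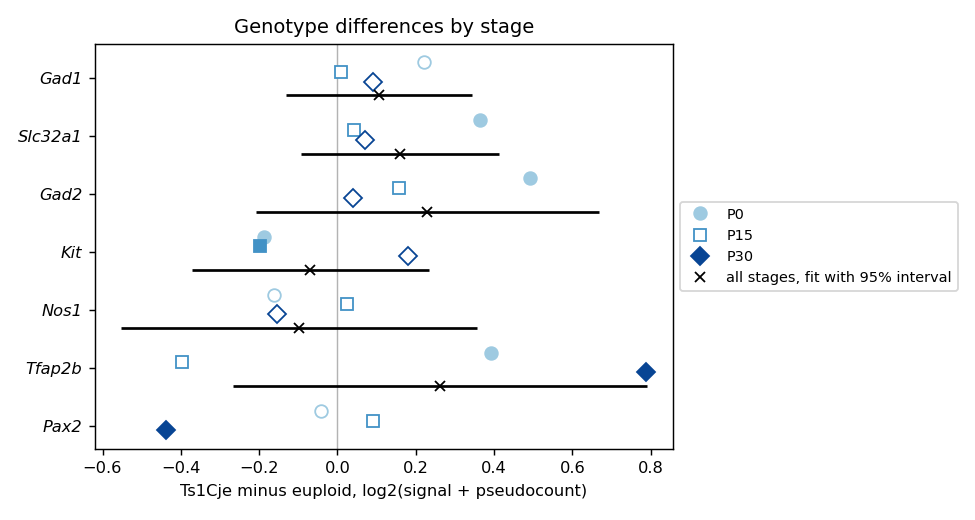
Difference of the Ts1Cje pool from the euploid pool of the same stage on the log2(signal + 4.6) scale (circles P0, squares P15, diamonds P30, filled where the hybridisations of both pools do not overlap), with the fitted difference over all stages and its 95% interval as a cross and bar. Each of the 6 intervals contains 0, and Pax2 has no fitted value because it lay below the filter.

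The other genes of these pathways were taken from lists drawn up by function, with earlier results of these data known. Of 14 genes of GABA metabolism and uptake, 7 were on the array and 5 were tested, and limma called none of them between P0 and P15 or between P15 and P30. The median was -0.081 from P0 to P15. Between P0 and P30 Glul, glutamine synthetase, rose by 1.93 (adjusted p = 0.0113) and Got2, the mitochondrial aspartate aminotransferase, by 0.56 (0.0183). The GABA transporter Slc6a13, which is found in the meninges, had -0.36 ± 0.15 from P0 to P15 and did not pass (adjusted p = 0.116).

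Of 17 genes of GABA and glycine receptors and inhibitory synapses on the array, 12 were tested between P0 and P15, 4 rose, 1 fell and 7 did not pass, with a median of 0.30. The rises were those of Gabra6 and Gabrd, receptor subunits of granule cells (7.90 ± 0.21 and 3.92 ± 0.21), the chloride importer Slc12a2 (1.44 ± 0.19) and the glycine receptor subunit Glrb (1.24 ± 0.13). Gabrb1 fell (-0.64 ± 0.20, adjusted p = 0.0478). Slc12a5, the neuronal chloride exporter, had 0.42 ± 0.19 (adjusted p = 0.143) to P15 and was called only to P30, at 0.58 (0.0428). Between P15 and P30 none of the 12 was called.

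Other markers of interneurons and Golgi cells went both ways. Of 6 tested genes, 2 rose and 2 fell between P0 and P15. Pvalb, the calcium-binding protein parvalbumin of molecular layer interneurons and Purkinje cells, rose by 2.83 ± 0.13, and Calb2, calretinin, which granule cells also hold, by 2.09 ± 0.14. The peptide gene Sst fell (-2.46 ± 0.51, adjusted p = 0.00783), and so did Nxph1, neurexophilin 1 (-1.75 ± 0.24, adjusted p = 0.00115). Cck and Npy did not pass, at 0.35 ± 0.16 and -0.75 ± 0.26, and Cck was called from P0 to P30, at 0.86 ± 0.16. Among 10 tested transcription factors of GABAergic and related lineages, 2 rose to P15, Rora (2.05 ± 0.20) and Pax6 (1.49 ± 0.27), and 3 fell, Gata3 (-3.09 ± 0.26), Tal1 (-2.80 ± 0.30) and Gata2 (-0.76 ± 0.17). Tfap2a, the AP-2 relative of Tfap2b, had -0.12 ± 0.25 (adjusted p = 0.753), and Lhx1 and Lhx5 had -0.19 ± 0.18 and -0.33 ± 0.31, neither of them called.

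In the Kit pathway, 11 genes were tested and limma called none between P0 and P15 (median -0.27). The ligand gene Kitl had 0.34 ± 0.17 (adjusted p = 0.159). Fyn, a kinase of the Src family, fell between P15 and P30, by 0.79 (adjusted p = 0.0218). In the nitric oxide and cyclic GMP pathway, 8 genes were tested and 3 rose from P0 to P15. These were Ppp1r17, the substrate of cyclic GMP-dependent kinase in Purkinje cells (5.49 ± 0.15), the phosphodiesterase Pde9a (0.97 ± 0.20) and Gucy1b1, a subunit of the soluble guanylyl cyclase that senses nitric oxide (0.62 ± 0.16, adjusted p = 0.0196). Dynll1, a dynein light chain that binds the synthase, fell from P15 to P30, by 0.87 (adjusted p = 0.0218). The other synthases, Nos2 and Nos3, lay below the filter.

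Markers of other cells changed with age beside these genes. Their lists were also chosen with earlier results of these data known. Of 13 tested Purkinje cell genes 11 rose and none fell between P0 and P15, with a median of 2.40, among them Pcp2 (3.78 ± 0.24) and Calb1 (3.69 ± 0.17), and of 9 tested genes of mature granule cells 8 rose, with a median of 2.09. Summed signal of the granule cell list was 4119 to 4530 at P0 and 10375 to 13637 at P15. Of 9 tested genes of neighbouring midbrain and brainstem 7 fell, among them the serotonin transporter Slc6a4 (-3.18 ± 0.38) and Meis2 (-2.94 ± 0.45). Slc6a4 (1.45 to 13.5 at P15 and P30), Meis2 (2.4 to 20.25), Gata3 (4.1 to 7.95) and Tal1 (1.9 to 6.4) passed the filter on mean signal through P0. A gene that enters in this way can hardly show anything but a fall. Gabra6 (0.65 and 2.1 at P0), Gabrd (2.2 and 3.3) and Ppp1r17 (3.9 and 4.75) passed through the later stages, which favours rises in the same way. The summed signal of the 11 midbrain and brainstem genes on the array, with or without passing the filter, was 1267 to 1484 at P0. It was 208.5 to 489.4 at P15 and 248.8 to 315 at P30. The fall of Tfap2b thus came at the same stage as the fall of the midbrain and brainstem list. The rises of Gad1, Kit and Nos1 came at the same stage as those of Purkinje and granule cell genes. The part of these cells in the members' values was not tested. Sst, Gata2, Gata3 and Tal1 stand in the midbrain and brainstem list too, as do Pvalb and Rora in that of Purkinje cells and Calb2 in that of granule cells.

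Kit is also a gene of mast cells and melanocytes, and 2 of 12 genes of these cells on the array passed the filter. Mean signals of mast cell proteases below the filter ran from 0.625 (Mcpt4) and 1.14 (Tpsab1) to 8.42 (Cpa3) and 16.1 (Cma1). The list summed to 95.8 to 137.1 at P0, 133.5 to 191.6 at P15 and 89.5 to 193.8 at P30, and Tpsb2, a mast cell tryptase, rose to P15 by 0.98 (adjusted p = 0.0205). The choroid plexus and meninges list had 1 called rise among 12 tested genes from P0 to P15 and summed to 3213 to 4499 at P0 and 3032 to 4526 at P15. From P15 to P30 it had 4 rises, among them Ttr (2.51), Kl (2.15) and Folr1 (2.00), and 2 falls. Kl (1.45 to 16.55 at P0 and P15) passed the filter only through P30, which favours a rise.

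**Figure D4:**
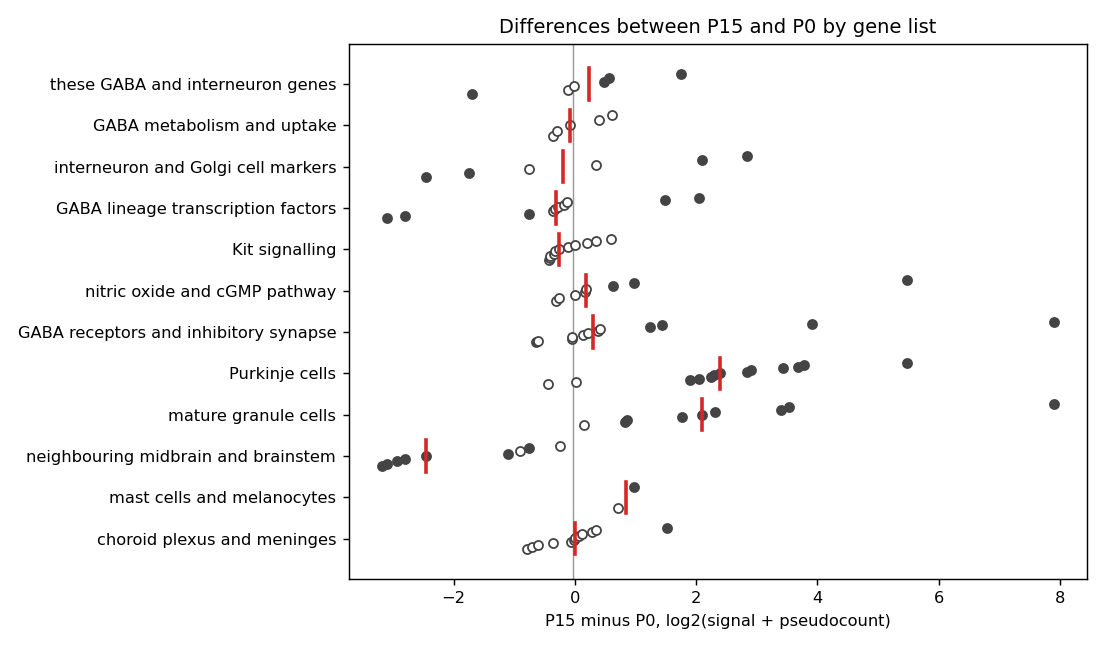
Difference between P15 and P0 on the log2(signal + 4.6) scale for each tested gene of each list (filled where the adjusted p is under 0.05), with the median of a list as a vertical bar and the median of all probe sets, -0.033, as a grey line. The median of the granule cell genes is 2.09 and that of the midbrain and brainstem genes -2.46, while the 6 tested GABA and interneuron genes spread from -1.70 to 1.75.

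Genes with the most similar profile over the 6 pools were found by Pearson's r against 5669 other genes, a description in which the shared stages give high values. For Gad1 they were Spock2 (r = 0.998), Lpp (0.997) and Tex264 (0.995), and 230 genes had an r above 0.95. For Kit they were Tbc1d22a (0.998), Nr2c1 (0.994) and Aldh3a2 (0.992), out of 226 above 0.95. Those of Nos1 were Lcat and Calb2 (0.999 each) and Nupr1 (0.998), out of 404, and those of Tfap2b were Zfp2 (0.995), Cadm1 (0.994) and Pla2g12a (0.991), out of 79. Slc32a1 had 5 genes above 0.95, led by Ankrd11 (0.991), Tcea2 (0.972) and Dcn (0.970), and Gad2 had 3, Uchl5 (0.963), Fstl3 (0.962) and Ankrd11 (0.959). Among the members themselves, Gad1, Kit and Nos1 had r of 0.913 to 0.934 with each other, Slc32a1 and Gad2 had 0.946, and Nos1 and Tfap2b had -0.943. Slc32a1 and Gad2 were not called between stages. Both were lowest in the euploid P0 pool (log2 means of 10.002 and 4.629) and highest in the Ts1Cje P0 pool (10.367 and 5.121). Their r thus leans on 1 pool against 1 pool, with Gad2 close to the filter.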

How the data were processed

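RNA of pooled cerebella was measured on 12 Affymetrix arrays, 2 per pool. The deposited values are linear signal intensities, which the authors made with MAS5 per the submitters' processing notes; the labels give no version or settings. No further scaling was applied. Symbols came from the platform annotation (10855 of 12488 probe sets have 1 symbol, 396 several, 1237 none). A filter at the 40th percentile of mean signal, 20.1, and the removal of 66 control probe sets set which were tested. The pseudocount, 4.6, is the 20th percentile of all values. Hybridisations were averaged within pools and 7453 probe sets fitted with limma 3.58.1 in R 4.3.3 (genotype and stage, eBayes with trend, 2 residual degrees of freedom, prior 6.39; 1 and 9.51 with genotype by day), two-sided, Benjamini-Hochberg adjusted. With 1 pool per genotype and stage, the p-values rest on departures of the pools from the fitted model. In these, spread between pools cannot be told apart from genotype differences particular to a stage. The small number of pools limits precision. From each list up to 3 genes with the largest called difference between neighbouring stages were named. Nxph1, Cck, Npy, Pax6, Gata2, Tfap2a, Lhx1, Lhx5, Glrb, Gabrb1, Slc12a5, Slc6a13, Glul, Got2, Kitl and Gucy1b1 were added after their values were seen. The same holds for Mcpt4, Tpsab1, Cpa3, Cma1, Col3a1, Dcn, Igf2, Ptgds, Msx1, Hoxa2, Hoxb3, Th, Dlx1, Dlx2, Dlx5 and Dlx6. The members and lists were chosen with earlier results of these data known. The fit was checked on simulated data. Alternatives were the pseudocount, filter, scaling, trend, hybridisations used, arrays with the pool as a block, and leaving out each pool. Figures: matplotlib 3.10.9, python 3.11.15.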

Additional observations from a re-analysis of the deposited data

Results flagged for a closer look

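Gad2 moved in opposite directions between P0 and P30 in the genotypes, without overlap between hybridisations: the difference was 0.294 in euploid and -0.156 in Ts1Cje on the log2 scale. The difference between these values was not tested, since each rests on 1 pool against 1 pool, and the signals lay between 19.7 and 30.9, close to the filter at 20.1.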

How the results depend on the processing

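Limits: precision rests on 1 pool per genotype and stage, Gad2, Nos1 at P0 and Pax2 lie near background, and no gene has a further probe set, so that alternative was not run. Leaving out a pool could not be fitted for the genotype difference by day.

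The number of member genes called from P0 to P15 was 4, and 2 with a filter at the 60th percentile (3 members left) or without the trend, and 2 to 4 without 1 pool. From P0 to P30 it was 4, and 2 under that filter. From P15 to P30 it was 0, and 1 (Kit) with 12 arrays, with and without the replicate block. Under the filter at the 60th percentile, 1634 of 4969 probe sets were called from P0 to P15 and 2256 from P0 to P30. Without the trend, 1914 of 7453 were called from P0 to P15. Over all probe sets, 353 calls between P15 and P30 became 199 with no filter, 183 without the trend, 746 and 98 with the first and second hybridisations alone, 1016 with 12 arrays, 898 with the replicate block added, and 141 to 508 without 1 pool. The P0 to P30 count was 1830 to 3293 and the P0 to P15 count 1499 to 1984 without 1 pool, against 2904 and 2088. The genotype count of 0 became 14 with 12 arrays, 6 with the replicate block, and 0 to 6 without 1 pool, and the count by day became 9 with the second hybridisation and 4 with 12 arrays (0 with the replicate block). The r of deviations between pools was over 0.1 in 7 of 15 pairs (-0.124 to 0.354), so the hybridisation number was not taken as a pairing, since that asked for every pair.

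Signs turned only for uncalled values. Slc32a1 from P0 to P15 had 0.088 under quantile scaling, 0.10 with the second hybridisation, and -0.163 to 0.146 without 1 pool (0.079 without the Ts1Cje P15 pool). Its P15 to P30 value was -0.08 with the second hybridisation, its P0 to P30 value -0.041 to 0.268 without 1 pool, and its change by day 0.069 with the first hybridisation. Gad2 from P0 to P15 had 0.13 with the first hybridisation and -0.304 to 0.088 without 1 pool, from P15 to P30 -0.053 with the first hybridisation, and from P0 to P30 -0.127 to 0.265 without 1 pool (-0.073 without the euploid P30 pool). Tfap2b from P15 to P30 had -0.006 with the second hybridisation and -0.369 to 0.62 without 1 pool (-0.27 without the Ts1Cje P30 pool), and for genotype -0.002 (either P30 pool left out) to 0.591. Nos1 by day had -0.039 with a pseudocount of 16 and -0.91 with the first hybridisation. The P0 to P15 calls of Gad1 and Kit were also lost without the trend (adjusted p = 0.0652 and 0.0551), and with the first hybridisation alone for Gad1 (0.0787) and the second alone for Kit (0.0943).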

Other observations

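Dlx1, a homeobox gene of forebrain interneurons that was listed among the lineage factors but lay below the signal filter, stood out in 1 pool. Its signal was 77.5 and 64.9 on the arrays of the Ts1Cje P15 pool and 0.5 to 5 on the other 10 arrays. The summed signal of the midbrain and brainstem list was also higher in that pool than in the euploid P15 pool, 412.6 to 489.4 against 208.5 to 230.6. In units of signal, Sst, which is also an interneuron marker, had the largest share of that gap, at 222.8 against 71.95. Th (64.4 against 23.3), Meis2 (20.25 against 2.4) and Slc6a4 (13.5 against 1.45) were higher too. Gata2 (45.45 and 44.5) and Hoxa2 (17.45 and 17.8) were close to each other, and Hoxb3 was lower (10.75 against 13.65). Below the filter, Dlx2 (8.55 against 0.9) and Dlx5 (12.35 against 1.75) were also higher than in the euploid P15 pool, while Dlx6 was not (1 against 1.1). Gad1, at 1141.8 and 1177.6 in the Ts1Cje P15 pool, lay between the euploid arrays of the same stage.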
